A study of Mus musculus with 62 samples.

Results

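Nicotinamide riboside (NR), a form of vitamin B3 that cells turn into NAD, was added to pterostilbene (PT), a stilbenoid found in plants, in mice that ran on wheels. The comparison covered 16 of the 62 quadriceps libraries of a full factorial of NR, PT and running, chosen by their titles, and was described across every expressed gene. The first group, Training_NR_PT, held 8 male mice with voluntary running, NR and PT. The second, Training_noNR_PT, held 8 male mice with voluntary running and PT but no NR. Running and PT were therefore common to all 16 animals, and NR was the factor that differed. NR was given intravenously, as the title of the series has it. Strain, age, doses and durations are not stated in the labels used here. Each of 8 days of termination contributed 1 mouse of each group, taken in the same session, so that the groups form 8 pairs by day. The purification pool of the labels, 1 or 3 in these libraries, differed within the pairs of days 5 and 6. In those pairs NR and pool cannot be told apart. Days 1 to 4 belonged to cohort 1 and days 5 to 8 to cohort 2.

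In muscle, NR is phosphorylated by the NR kinases, of which Nmrk1 is widespread and Nmrk2 is enriched in muscle, and the product is joined to ATP by NMN adenylyl transferases to give NAD. Most muscle NAD is otherwise salvaged from nicotinamide through Nampt. NAD is the electron carrier of glycolysis, the TCA cycle and fatty acid oxidation, and it is consumed by sirtuins, PARP enzymes and Cd38. Voluntary running raises the oxidative capacity of mouse quadriceps, a muscle made almost wholly of fast fibres.

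Poly-A RNA was counted per gene, with 9.189 to 27.22 M counts per library in runners with NR and PT and 9.951 to 28.03 M in runners with PT alone. No difference between the groups was found in the total (exact permutation test of the pairs by day, two-sided, p = 0.5), in the RNA integrity number (p = 0.258) or in the share of mitochondrially encoded counts (p = 0.68). The 12 genes of skeletal muscle identity summed to 142000 to 179000 CPM (counts per M counts of the library) in runners with NR and PT and 135000 to 188000 CPM in runners with PT alone. Among them, Myh4, the fast IIb myosin, had a median of 55500 CPM with NR and PT and 58600 CPM with PT alone. Libraries 4, 5 and 6 of runners with NR and PT stood apart: 4 and 5 held many slow-fibre transcripts and 6 held liver transcripts. The 4 ribosomal-RNA-like transcripts, Gm26917, Gm42418, AY036118 and Gm15564, chosen after the data were seen, summed to a lowest, median and highest of 9.52, 12 and 41.5 CPM with NR and PT, against 5.79, 7.68 and 9.34 CPM with PT alone. That sum was higher in 8 of 8 pairs and the groups did not overlap, which is given as a description because the transcripts were chosen with these values in view. It reached 8440 CPM in other groups of the series.

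The labels also give each mouse a change in body weight, whose unit is not stated. It had a lowest, median and highest of -5.2, -1.75 and -0.2 in runners with NR and PT, against -2.9, -0.15 and 3 in runners with PT alone. All 8 mice with NR and PT had a value below 0, as did 4 of 8 with PT alone, and the ranges overlapped. The mean was -2.14 ± 1.95 with NR and PT and 0.225 ± 2.38 with PT alone (SD, n = 8 each), and the mouse with NR was the lower of the pair on 6 of 8 days. The mean difference of -2.36 had p = 0.0391 (exact permutation test of the pairs, two-sided), and 0.0978 after Benjamini-Hochberg adjustment over 5 library measures.

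No gene passed the test for NR added to PT in running mice. Of 14549 genes tested, 0 (0%) had an adjusted p below 0.05 in edgeR's quasi-likelihood test, where the lowest adjusted p was 0.9, and 0 in DESeq2, where it was 0.543. At an unadjusted p below 0.05 edgeR gave 668 genes and DESeq2 675. In edgeR 381 of these were higher with NR (2.62% of genes tested) and 287 lower (1.97%). The log2 changes had a 5th percentile of -0.26 and a 95th of 0.27, around a median of 0.003, with a median standard error (SE) of 0.105. A log2 change beyond 1.5-fold was estimated for 206 genes and beyond 2-fold for 37. In all 8 pairs, 94 genes (0.646%) were higher and 57 (0.392%) lower with NR. Values of the groups did not overlap for 3 genes (0.0206%), of which Bri3 and Cfap157 are named because of those values. Ddx52, an RNA helicase gene, was at 20.5 ± 1.66 CPM with NR and PT and 23.2 ± 1.04 CPM with PT alone (SD, n = 8 each). Bri3 was at 11.2 ± 1.18 CPM with NR and PT and 9.12 ± 1.06 CPM with PT alone, and Cfap157, a cilia-associated gene, at 0.708 ± 0.0775 CPM with NR and PT and 0.421 ± 0.107 CPM with PT alone.

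**Figure D1:**
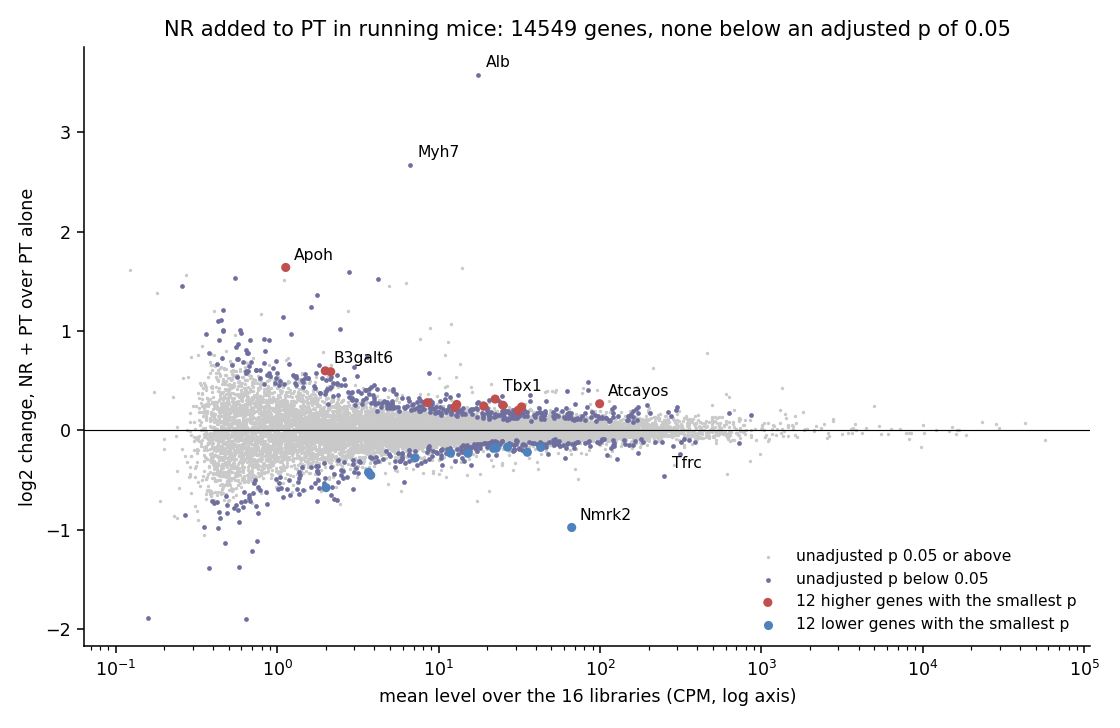
Each point is 1 of 14549 genes, with its mean level over the 16 libraries in CPM on a log x axis and its log2 change, NR and PT over PT alone, on the y axis. Red and blue points are the 12 higher and 12 lower genes with the smallest unadjusted p, and Nmrk2 lies apart from genes of like level at -0.98.

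Among genes averaging 1 CPM or more, Nmrk2 had the most negative log2 change, although it did not pass the test. Nmrk2 lies on chromosome 10 from 81198170 to 81202051 on the minus strand (mm10). Its lowest, median and highest levels were 26.3, 40.6 and 76.7 CPM in runners with NR and PT, against 46.7, 84.9 and 143 CPM in runners with PT alone. Every NR mouse was below its partner of the same day, although the ranges overlapped. On day 4 the pair stood at 68.5 CPM with NR and PT and 143 CPM with PT alone, and on day 5, the closest pair, at 42.6 and 46.7 CPM. The log2 change was -0.98 ± 0.28 (SE), a fold of 0.509 with a 95% interval of 0.345 to 0.749 (unadjusted p = 0.00099, edgeR adjusted p = 0.907). The exact permutation test of the 8 pairs alone gave p = 0.00781, the smallest it can give. By cohort the log2 change was -1.25 in cohort 1 and -0.61 in cohort 2. Nmrk2 was singled out with earlier results of these libraries known, so its level here is no independent evidence.

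Atcayos, an antisense RNA on the plus strand, runs across the whole of Nmrk2. As deposited it spans 81194609 to 81209161 on chromosome 10, and in the GENCODE M21 annotation its exons share 270 of the 1854 exonic bases of Nmrk2. Its level lay the other way, with a lowest, median and highest of 88.4, 109 and 123 CPM in runners with NR and PT, against 70.4, 91.6 and 103 CPM in runners with PT alone. It was higher in 8 of 8 pairs, the ranges overlapped, and the log2 change was 0.27 ± 0.07 (SE, unadjusted p = 0.000578, edgeR adjusted p = 0.907). Atcay, the caytaxin gene on the minus strand that Atcayos also overlaps, was at 12.4 ± 2.57 CPM with NR and PT and 10.7 ± 2.89 CPM with PT alone (SD, n = 8 each), with a log2 change of 0.21 ± 0.18. The kit marks strand, but whether the counting used strand is not stated, so reads from the bases that Nmrk2 and Atcayos share cannot be assigned with certainty. The promoter of Nmrk2 is shown because it lies inside the span of Atcayos, read from the opposite strand. It is the 250 bases before the RefSeq start, chr10:81202038-81202287 on the minus strand of GRCm38.p6, with the E-boxes (CANNTG, the same on both strands), the motif of myogenic and clock bHLH factors, in capitals:
Nmrk2 promoter: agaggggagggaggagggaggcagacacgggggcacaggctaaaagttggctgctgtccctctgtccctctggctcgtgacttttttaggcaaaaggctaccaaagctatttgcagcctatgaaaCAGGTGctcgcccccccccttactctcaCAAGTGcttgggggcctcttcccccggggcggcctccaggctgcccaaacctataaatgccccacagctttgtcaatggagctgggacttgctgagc
It held 2 matches, and 66.2% of 32851 RefSeq promoters of the same length held at least 1. A match is a description of the letters and was not tested as a binding site.

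The median of the genes of NAD synthesis, salvage and use lay close to 0, with members from -0.98 for Nmrk2 to 0.34 for Sarm1. Sarm1 had 0.34 ± 0.35 (SE) and Bst1 -0.52 ± 0.36, lower with NR in 7 of 8 pairs, both averaging below 1 CPM. Of 33 listed, 29 passed the filter on low counts, 0 were called, 15 were above 0 and 14 below, and the median log2 change was 0.006, against 0.003 over all genes tested. At an unadjusted p below 0.05 only Nmrk2 and Naprt, which makes NAD from nicotinic acid, were found, 1 in each direction among 29. Over all genes tested 2.62% were higher and 1.97% lower at that threshold. Naprt was at 5.21 ± 0.686 CPM with NR and PT and 4.43 ± 0.707 CPM with PT alone (SD, n = 8 each), a log2 change of 0.22 ± 0.11. Nmrk1 was at 6.4 ± 0.918 CPM with NR and PT and 6.24 ± 0.52 CPM with PT alone, a log2 change of 0.05 ± 0.10. Nampt, the rate-limiting salvage enzyme, had a log2 change of -0.05 ± 0.06 and Nmnat1, the nuclear adenylyltransferase, -0.12 ± 0.07. Cd38, an NAD-consuming enzyme, was lower with NR in 8 of 8 pairs, at 10.6 ± 1.9 CPM with NR and PT and 12.2 ± 2.03 CPM with PT alone. Its log2 change was -0.21 ± 0.12 (unadjusted p = 0.0908). The deacetylase genes Sirt1 and Sirt3 had log2 changes of -0.07 ± 0.08 and 0.08 ± 0.09, and Nnmt, which methylates nicotinamide for excretion, -0.05 ± 0.31.

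B3galt6 had the smallest p of all genes at 1 CPM or more on average. It encodes a galactosyltransferase that builds the linker between proteoglycan cores and their sugar chains and lies on chromosome 4 from 155989466 to 155992649. Its lowest, median and highest levels were 1.72, 2.35 and 2.98 CPM in runners with NR and PT, against 1.26, 1.6 and 1.97 CPM in runners with PT alone. The NR mouse was the higher in 7 of 8 pairs, and the ranges overlapped at their edges. The log2 change was 0.60 ± 0.15 (SE), a fold of 1.52 with a 95% interval of 1.24 to 1.86 (unadjusted p = 0.000124, edgeR adjusted p = 0.9).

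The other 11 of the 12 higher genes with the smallest p are given as a ranking, and none passed the test. Uros, an enzyme of heme synthesis, was at 20.7 ± 2.2 CPM with NR and PT and 17.4 ± 1.04 CPM with PT alone (SD, n = 8 each), a log2 change of 0.25 ± 0.07. Slc25a28, mitoferrin-2, which carries iron into mitochondria, was at 33.3 ± 1.74 CPM with NR and PT and 28.9 ± 2.43 CPM with PT alone, a log2 change of 0.20 ± 0.06. Stard10, a phospholipid transfer protein gene, was higher in 8 of 8 pairs, at 27.3 ± 3.08 CPM with NR and PT and 22.8 ± 1.71 CPM with PT alone. Slc27a4, a fatty acid transport protein gene, was at 13.6 ± 0.88 CPM with NR and PT and 11.6 ± 1.3 CPM with PT alone, and Pex10, a peroxisome biogenesis gene, at 9.31 ± 0.762 CPM with NR and PT and 7.73 ± 0.612 CPM with PT alone. Tbx1, a T-box transcription factor gene, was higher in 8 of 8 pairs at 24.9 ± 5.14 CPM with NR and PT and 19.9 ± 1.18 CPM with PT alone, and Alkbh6, of the AlkB dioxygenase family, in 8 of 8 at 14.1 ± 1.61 CPM with NR and PT and 11.8 ± 0.677 CPM with PT alone. Arf5, a small GTPase gene of vesicle traffic, had a log2 change of 0.24 ± 0.07 and the antisense RNA Epb41l4aos 0.59 ± 0.18. The 2 remaining genes of the ranking were Atcayos and the liver gene Apoh.

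The 12 lower genes with the smallest p were led by Ergic2, a gene of the membranes between endoplasmic reticulum and Golgi. Ergic2 had a lowest, median and highest of 37.8, 39.7 and 44.9 CPM in runners with NR and PT, against 41.7, 46.2 and 49.5 CPM in runners with PT alone. It was lower in 8 of 8 pairs while the ranges overlapped, with a log2 change of -0.17 ± 0.05 (unadjusted p = 0.000709, edgeR adjusted p = 0.907). Klhl15, a substrate adaptor of a cullin ubiquitin ligase, was at 3.1 ± 0.453 CPM with NR and PT and 4.26 ± 0.893 CPM with PT alone (SD, n = 8 each), a log2 change of -0.42 ± 0.12. Zfp251, a zinc finger gene, and Jade1, a subunit of a histone acetyltransferase complex, were lower in 8 of 8 pairs, with log2 changes of -0.23 ± 0.07 and -0.22 ± 0.07. Fip1l1, which processes the 3' ends of messenger RNAs, had -0.18 ± 0.05 and Ddx52 -0.18 ± 0.06. Maip1, for a mitochondrial protein, had -0.23 ± 0.07 and Coa7, a cytochrome c oxidase assembly factor, -0.17 ± 0.05. Kctd18 was at -0.28 ± 0.08, the C-type lectin gene Clec1a at -0.45 ± 0.14 and the potassium channel gene Kcnh7 at -0.58 ± 0.19. The remaining gene of the ranking was Nmrk2.

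**Figure D2:**
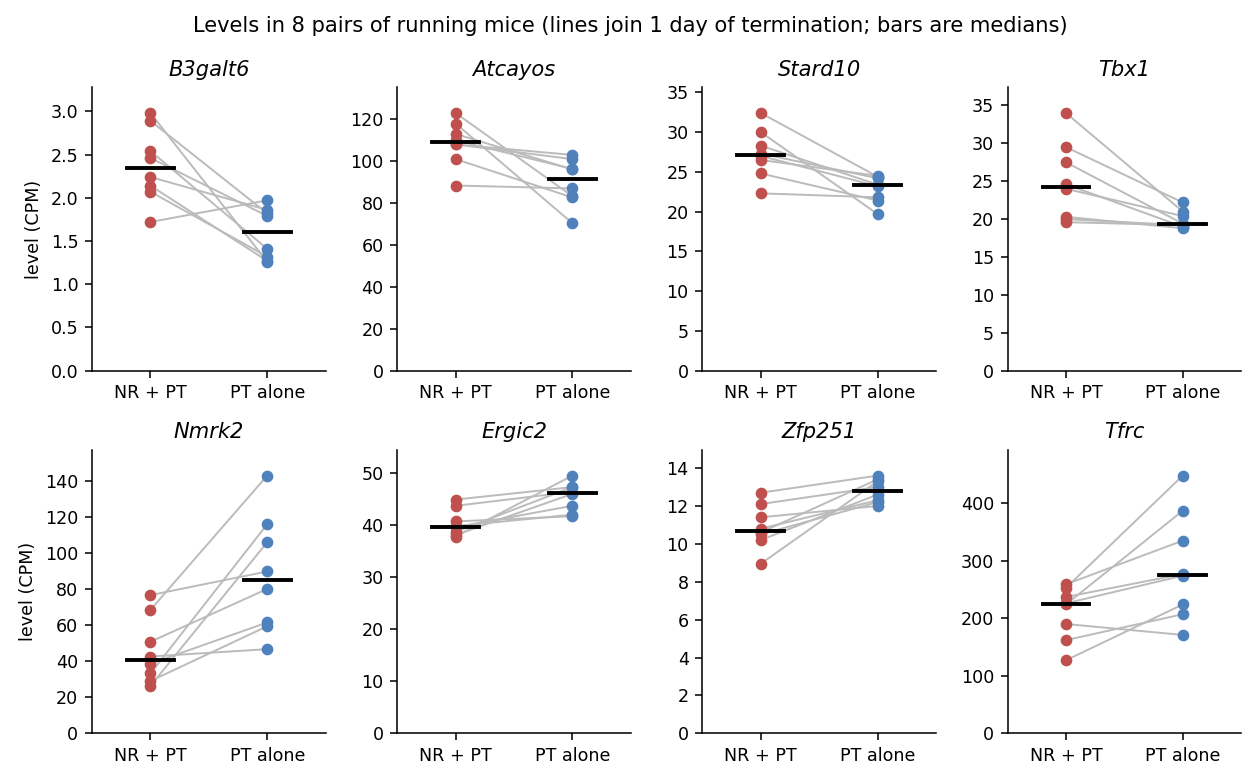
Levels in CPM of 8 genes in runners with NR and PT (left, red) and PT alone (right, blue). Grey lines join the 2 mice of 1 day of termination and black bars are medians. Nmrk2 is lower with NR and PT in 8 of 8 pairs and Atcayos higher in 8 of 8, and the ranges overlap in every panel.

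Genes of mitochondrial energy metabolism lay slightly above 0 as a body, and none was called. Of 59 nuclear-encoded subunits of oxidative phosphorylation, 56 were above 0 and 3 below, with a median log2 change of 0.11, where 50.9% of all genes were above 0. Uqcrq, a subunit of complex III, was at 214 ± 40.5 CPM with NR and PT and 179 ± 23.5 CPM with PT alone (SD, n = 8 each), a log2 change of 0.26 ± 0.11. Atp5d, of the ATP synthase, had 0.18 ± 0.08, Cox5b, of complex IV, 0.23 ± 0.12, and Ndufs3, of complex I, 0.15 ± 0.08. Of 22 genes of the TCA cycle and pyruvate oxidation 21 were above 0 (median 0.07), among them Suclg2 at 0.13 ± 0.08 and Fh1 at 0.11 ± 0.07. Of 30 genes of fatty acid uptake and oxidation 23 were above 0 (median 0.07), with Ppard, a nuclear receptor that drives this programme, at 0.19 ± 0.06 and Echs1 at 0.15 ± 0.08. The 8 tested mitochondrially encoded subunits had a median of 0.03. The cohorts differed in all 4 lists. The medians in cohort 1 were 0.22, 0.20, 0.34 and 0.10, and in cohort 2 they were -0.02, -0.06, -0.21 and -0.07, for the 4 lists as named. By pair the median of the oxidative phosphorylation list ran from -0.25 to 0.36 and was above 0 on 5 of 8 days. This difference between cohorts was not tested. Leaving out 1 library or day moved the median of oxidative phosphorylation between 0.06 and 0.16, and that of fatty acids between -0.04 without day 2 and 0.17 without day 6. All 36 list medians, here and below, moved by over 1.5 times or changed sign when some library or day was left out.

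The slow-fibre list, contractile and calcium-handling genes of type I fibres, had 14 of 15 members above 0 and a median log2 change of 0.54. Myh7, the slow myosin heavy chain, had a lowest, median and highest of 0.317, 2.52 and 58 CPM in runners with NR and PT, against 0.196, 0.825 and 3.48 CPM in runners with PT alone. Library 5, of day 5, held the 58 CPM and library 4, of day 4, 29.4 CPM, while the other 6 libraries with NR and PT lay between 0.317 and 3.43 CPM. With PT alone, library 5 held the 3.48 CPM and the other 7 lay at or below 1.21 CPM, a level that 3 of those 6 libraries with NR and PT exceeded. The log2 change of Myh7 was 2.67 ± 0.90 (unadjusted p = 0.00451, edgeR adjusted p = 0.983), and 0.23 without those libraries. Tnnt1, slow troponin T, had 1.52 ± 0.56 and Tnnc1, slow troponin C, 1.36 ± 0.59. Without libraries 4 and 5, a choice made after seeing the data, these were 0.03 and -0.24, and the median of the list was 0.07. Library 5 with PT alone, of day 6, was kept there. With day 6 left out instead, the median of the list was 1.167, Myh7 was at 3.845 and Tnnt1 at 1.92. By pair the list median ran from -1.51 to 1.77 and was above 0 on 7 of 8 days. It was 1.56 in cohort 1 and 0.14 in cohort 2. Mb, myoglobin, was the higher with NR in 7 of 8 pairs, at 1560 ± 670 CPM with NR and PT and 1130 ± 402 CPM with PT alone (SD, n = 8 each), with a log2 change of 0.43 ± 0.29. Without libraries 4 and 5 with NR and PT the medians were 0.09 for oxidative phosphorylation, 0.04 for the TCA cycle and 0.002 for fatty acids. In bulk muscle, a larger share of one fibre type and more RNA per fibre cannot be told apart.

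The fast fibre list had 7 of 16 members above 0 and a median of -0.02. Myh1, the IIx myosin, was at 5500 ± 2440 CPM with NR and PT and 4410 ± 1820 CPM with PT alone (SD, n = 8 each), a log2 change of 0.25 ± 0.27. Myh2, the IIa myosin, had 0.20 ± 0.51 and Myh4 -0.09 ± 0.08. Glycolysis and glycogen genes had 9 of 20 members above 0 and a median of -0.01. Slc2a4, the insulin-regulated glucose transporter, had 0.10 ± 0.05, Hk2, hexokinase, 0.02 ± 0.10 and Pdk4, a kinase that inhibits pyruvate dehydrogenase, -0.04 ± 0.42. The 27 tested exercise regulators and secreted factors had a median of 0.01. Ppargc1a, the coactivator of mitochondrial biogenesis, was at 38.2 ± 6.19 CPM with NR and PT and 36.8 ± 4.6 CPM with PT alone, and Vegfa at 171 ± 20.2 CPM with NR and PT and 175 ± 38 CPM with PT alone. Apln, apelin, had a log2 change of -0.42 ± 0.21 and Mstn, myostatin, -0.24 ± 0.16. Among insulin signalling genes 8 of 26 were above 0 (median -0.02), with Grb10, an inhibitor of the receptor, at -0.17 ± 0.08. Castor2, a relative of the arginine sensor of mTORC1, was at 126 ± 12.1 CPM with NR and PT and 115 ± 10.5 CPM with PT alone.

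**Figure D3:**
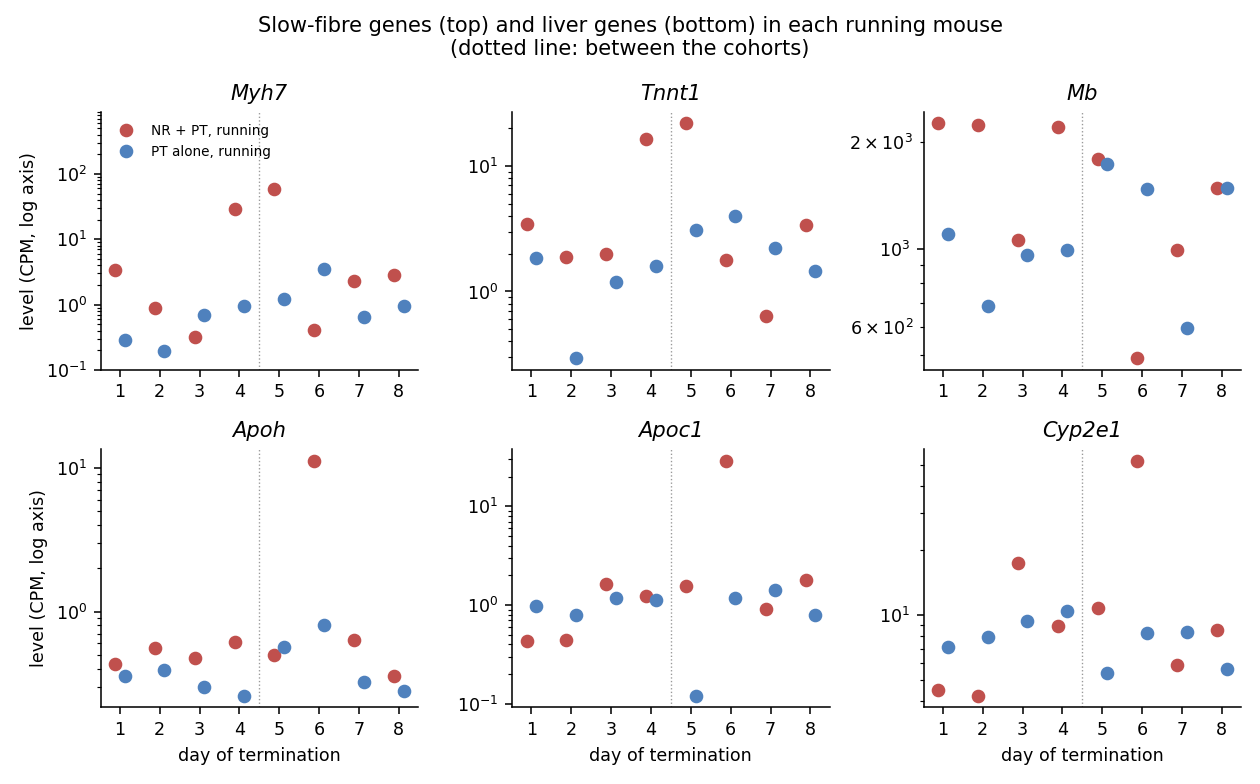
Levels in CPM (log y axes) by day of termination on the x axis, with 1 runner with NR and PT (red) and 1 with PT alone (blue) each day. Myh7 and Tnnt1 are highest on days 4 and 5 with NR and PT, Mb spreads widely in both groups, and Apoh, Apoc1 and Cyp2e1 on day 6 with NR and PT.

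The largest log2 change of the whole comparison, that of Alb, came from 1 library that also held other liver transcripts. Alb, albumin, was at 274 CPM in library 6 with NR and PT, between 0.143 and 0.783 CPM in the other 7, and between 0 and 1.27 CPM with PT alone. Apoh, a plasma apolipoprotein, was at 11.2 CPM in that library, against a highest of 0.632 in the other 7 and of 0.801 with PT alone. The log2 changes were 3.58 ± 1.05 for Alb, 1.64 ± 0.45 for Apoh, 1.59 ± 0.57 for Apoc1 and 0.76 ± 0.43 for Cyp2e1, a liver cytochrome. Without library 6 they were -0.19, 0.21, 0.28 and 0.09. The 18 liver genes, a list written after the data were seen, summed to 709 CPM in that library and to at most 24.3 CPM in the other 15.

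Cytosolic ribosomal protein genes had 32 of 35 members above 0 and a median log2 change of 0.08, with Rpl13 at 0.26 ± 0.11 and Rps2 at 0.15 ± 0.06. Without library 7 with NR and PT the median was 0.04 and Rpl13 was at 0.13, and day 7 had the highest pair median, 0.32. These transcripts and those of oxidative phosphorylation are short, with median lengths of 1110 and 1230 bases against 3260 over all genes tested. Their median GC contents were 52% and 49.7%, against 49.7% over all genes tested. Log2 changes followed transcript length and GC content in this comparison. The correlation of a library's deviations with GC content averaged 0.0425 with NR and PT and -0.055 with PT alone, higher with NR in 7 of 8 pairs (exact permutation test, p = 0.0234, and 0.0978 adjusted over the 5 library measures). This measure was not among those planned, so its p is given as a description. The correction given below was also not planned. Over 5 bins of rising GC content the median log2 change was -0.04, -0.02, -0.001, 0.02 and 0.05, and over 5 bins of rising length it was 0.05, 0.02, 0.006, -0.02 and -0.03. In the bin richest in GC, 159 genes were higher and 16 lower with NR at an unadjusted p below 0.05, and in the poorest 20 were higher and 108 lower. In the other 3 NR comparisons of the series, the GC bins ran from -0.011 to 0.011 in runners without PT, 0.012 to -0.018 in non-runners with PT and 0.001 to -0.024 in non-runners without PT. The part of GC content and length in the values of these lists was not tested beyond the correction that follows. With each library's trend on both properties taken out, the median was 0.05 for ribosomal proteins and 0.08 for oxidative phosphorylation. Among named genes, Arf5 went from 0.24 to 0.14, Tbx1 from 0.32 to 0.22, Map1lc3a from 0.22 to 0.12 and Naprt from 0.22 to 0.14. Nmrk2 hardly moved, at -0.979, and B3galt6 was at 0.59. Chrna1 went up from 0.354 to 0.379 and Echs1 from 0.152 to 0.172.

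Immune and stress genes showed no call. Of 25 interferon response genes 8 were above 0, with a median log2 change of -0.07, at -0.33 in cohort 1 and 0.16 in cohort 2. Oas1a, an RNA sensor, was at 0.626 ± 0.407 CPM with NR and PT and 0.97 ± 0.762 CPM with PT alone (SD, n = 8 each), a log2 change of -0.40 ± 0.32. Ifit2 had -0.27 ± 0.21, Irf7 -0.14 ± 0.20, Bst2 -0.01 ± 0.18 and Ifit3 0.03 ± 0.19. Of 15 genes of MHC and antigen processing 14 were above 0, with a median of 0.09, at -0.14 in cohort 1 and 0.26 in cohort 2, among them Psmb9 at 0.19 ± 0.25. Day 7 stood at a pair median of 0.95 and the other 7 days between -0.47 and 0.23. Without library 7 with NR and PT the median was -0.09 and Psmb9 was at 0.02. The macrophage and neutrophil markers followed the same split, with medians of -0.24 and 0.27 in the 2 cohorts, and 0.04 over both, against -0.12 without that library. Their part in these values was not tested. In the chaperone list Hspa5, the endoplasmic reticulum chaperone BiP, had -0.15 ± 0.05 and Bag3, a co-chaperone of muscle, 0.14 ± 0.06. Antioxidant genes had a median of 0.04 and genes of the integrated and mitochondrial stress response 0.02.

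In the iron list, Tfrc, the transferrin receptor through which muscle takes up iron, had the smallest p. Its lowest, median and highest levels were 127, 225 and 259 CPM in runners with NR and PT, against 171, 276 and 448 CPM in runners with PT alone. The NR mouse was lower in 7 of 8 pairs, and the highest levels came from mice with PT alone. The log2 change was -0.46 ± 0.16 (unadjusted p = 0.00494, edgeR adjusted p = 0.983). Ftl1, a ferritin subunit that stores iron, was at 74.9 ± 15.9 CPM with NR and PT and 66.5 ± 5.87 CPM with PT alone, a log2 change of 0.17 ± 0.10. The list as a whole had 7 of 11 tested members above 0 and a median of 0.02.

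Genes of regeneration and denervation had 14 of 23 members above 0 and a median of 0.06. Chrna1 and Chrnd, subunits of the muscle acetylcholine receptor, were each higher with NR in 7 of 8 pairs. Chrna1 was at 14.9 ± 2.46 CPM with NR and PT and 11.6 ± 1.37 CPM with PT alone (SD, n = 8 each), a log2 change of 0.35 ± 0.12, and Chrnd had 0.39 ± 0.16. Chrng, the embryonic subunit, was under 1 CPM in all 16 libraries, with a log2 change of 0.39 ± 0.66. Myh8, perinatal myosin, had 0.33 ± 0.15, the fusion gene Mymk 1.61 ± 0.90 at levels under 0.5 CPM, and Sln, an inhibitor of the calcium pump, -0.53 ± 0.53. Of 20 genes of atrophy and proteolysis 16 were above 0 (median 0.06). Map1lc3b, an autophagosome protein, was higher in 8 of 8 pairs at 155 ± 7.91 CPM with NR and PT and 144 ± 7.73 CPM with PT alone, and its relative Map1lc3a in 7 of 8 at 180 ± 20.8 CPM with NR and PT and 155 ± 21.8 CPM with PT alone. Cdkn1a, the cell cycle inhibitor p21, had a log2 change of -0.40 ± 0.24, and of -0.11 without library 2 with PT alone.

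Below 0 lay lipogenesis, with 13 of 17 members and a median of -0.09, led by Me1, malic enzyme, at 268 ± 24.9 CPM with NR and PT and 298 ± 29.5 CPM with PT alone (SD, n = 8 each). Its log2 change was -0.16 ± 0.06. By pair the median of the lipogenesis list ran from -0.55 to 0.36 and was above 0 on 4 of 8 days. That median was -0.21 in cohort 1 and -0.003 in cohort 2. Of 13 adipocyte markers tested, 12 were also below 0, with a median of -0.17 that ran from -1.3 to 0.88 by pair. Their summed level was 357 to 841 CPM with NR and PT and 475 to 804 CPM with PT alone, and their part in the lipogenesis values was not tested. Immediate early genes had a median of -0.16, with Egr1 at -0.49 ± 0.28, Egr2 at -0.71 ± 0.34, Jund at 0.37 ± 0.20 and Maff at 0.36 ± 0.17. The median of that list was -0.17 in cohort 1 and 0.09 in cohort 2. By pair it ran from -0.99 to 0.81 and was above 0 on 3 of 8 days. The 34 extracellular matrix genes had a median of -0.02, with Tnc, tenascin, at -0.41 ± 0.21 and Thbs1, thrombospondin, at -0.45 ± 0.25. Tenocyte markers were below 0 in 7 of 8 with a median of -0.23, from -1.21 to 1.22 by pair. Clock genes had a median of -0.06 and glucocorticoid-responsive genes -0.03. Endothelial, smooth muscle, fibroblast and satellite cell markers had medians of 0.009, -0.02, 0.06 and 0.02. Erythrocyte markers were below 0 in 5 of 5 tested (median -0.22, from -1.61 to 1.11 by pair). Schwann cell markers were below 0 in 7 of 9 (median -0.04), while the 1 lymphocyte marker tested was at 0.20.

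**Figure D4:**
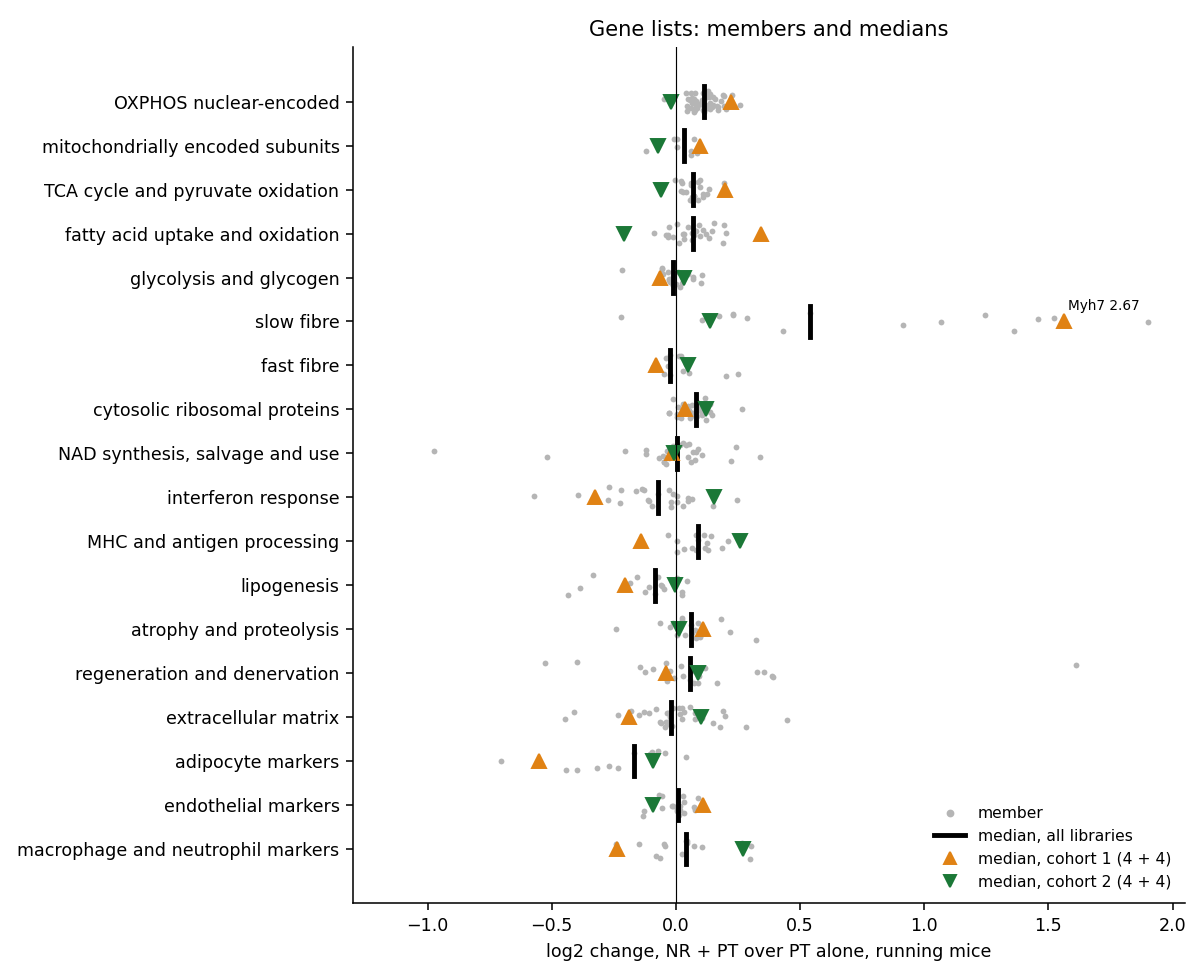
Log2 change, NR and PT over PT alone, of the members of 18 gene lists (grey points), with the median over all libraries (black bar) and within cohort 1 (orange) and cohort 2 (green). Slow fibre genes have the highest median, 0.54, and the cohorts lie on opposite sides of 0 for oxidative phosphorylation, fatty acid and interferon genes.

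The same contrast could be set beside NR in the other 3 settings of the study, which share no library with it. The difference between running and non-running mice with PT, tested as an interaction in edgeR, gave 0 calls and 518 genes at an unadjusted p below 0.05 (3.56%), and DESeq2 gave 0 calls and 521. The difference between running mice with and without PT gave 0 calls and 462 (3.18%) in edgeR, and 0 and 461 in DESeq2. The difference from the mean of the other 3 NR effects gave 0 calls and 582 (4%) in edgeR, and 0 and 596 in DESeq2. For Nmrk2 the NR log2 change was -0.98 ± 0.28 in runners with PT, -0.85 ± 0.30 in runners without PT, -1.17 ± 0.28 in non-runners with PT and -1.44 ± 0.28 in non-runners without PT. The difference between runners with PT and the mean of the other 3 was 0.18 ± 0.32 (unadjusted p = 0.582), an interval that leaves room for effects of unlike size. Atcayos followed with 0.27 ± 0.07, 0.20 ± 0.08, 0.31 ± 0.07 and 0.35 ± 0.07 in the same order.

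B3galt6 had the smallest p for the difference from the other 3 settings. It had an NR log2 change of 0.60 ± 0.15 in runners with PT, against -0.11 ± 0.16, -0.18 ± 0.14 and -0.36 ± 0.15 in the others. The difference was 0.82 ± 0.17 (unadjusted p = 1.19e-05, edgeR adjusted p = 0.174), and the largest part of it is the value that placed the gene in the ranking above. Stard10 differed by 0.38 ± 0.09 (edgeR adjusted p = 0.209), Fip1l1 by -0.27 ± 0.06 (edgeR adjusted p = 0.209), Wdr70 by -0.24 ± 0.06 and Klhl15 by -0.53 ± 0.14. The differences of Stard10, Fip1l1 and Klhl15 likewise reuse the values that placed these genes in the rankings above. Against the NR effect in non-runners with PT, Prkcz, an atypical protein kinase C gene, differed by -0.94 ± 0.24, Dcxr, xylulose reductase, by 0.55 ± 0.15 and Uba2, of SUMO activation, by -0.28 ± 0.08. Against the NR effect in runners without PT, the zinc finger gene Zkscan1 differed by -0.33 ± 0.09. None of these passed the test after adjustment. The interferon list had NR medians of -0.07 in runners with PT, -0.25 in runners without PT, -0.20 in non-runners with PT and -0.49 in non-runners without PT.

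**Figure D5:**
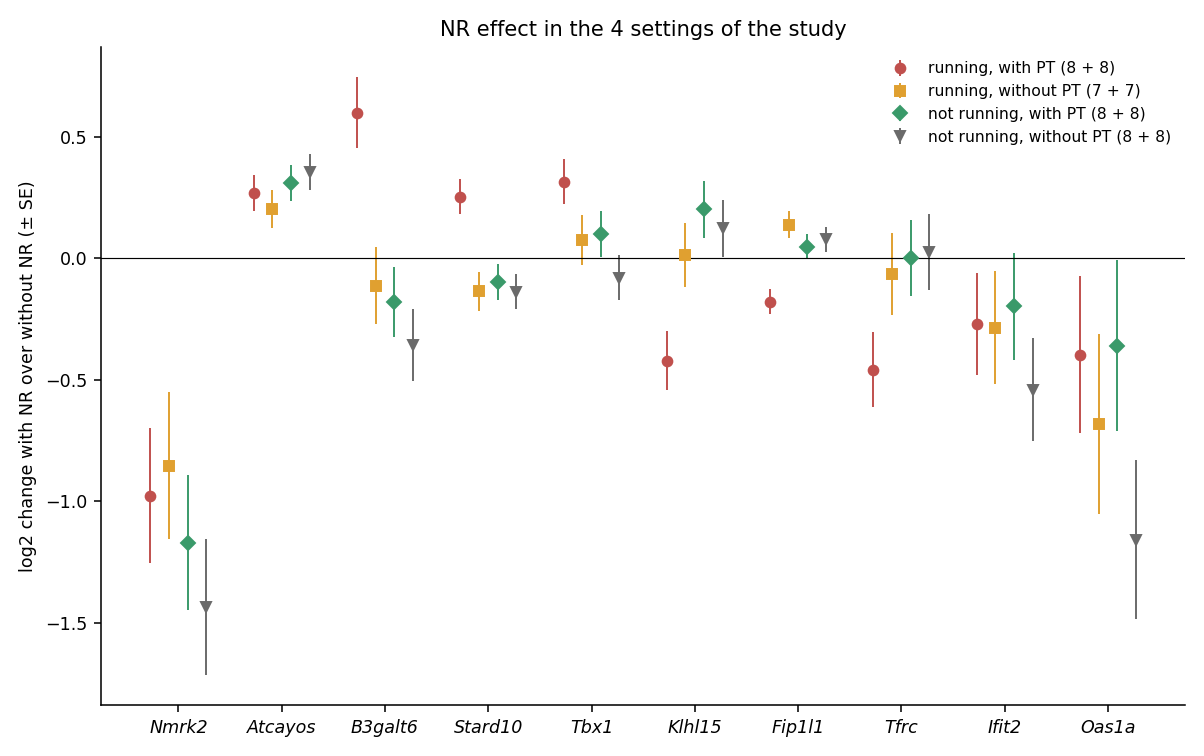
NR log2 change with its SE (bars) for 10 genes in each of the 4 settings: running with PT (red, 8 + 8 libraries), running without PT (7 + 7), not running with PT and not running without PT (8 + 8 each). Nmrk2 is below 0 and Atcayos above 0 in every setting. B3galt6 and Stard10, which were ranked by their values in runners with PT, are above 0 there and below 0 in the other 3.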

How the data were processed

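The authors deposited 1 table of raw read counts, with genes in rows. Per the submitters' processing notes, reads were aligned with STAR 2.7.3a and counted with featureCounts 2.0.0 on mm10, and per the labels' protocols the kit selected poly-A RNA and marked strand. For the counting, strand setting and annotation release were not given in the sources used here. Of 55487 gene identifiers, 99.8% were matched to symbols through GENCODE M21.

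Low genes were removed by filterByExpr at a minimum count of 10 and a total of 15, libraries were scaled by TMM, and genes were tested with edgeR 4.0.16 (limma 3.58.1, R 4.3.3) in 1 quasi-likelihood fit of all 62 libraries with 8 groups, 8 days and the time of termination as terms. This left 46 residual degrees of freedom and a biological coefficient of variation of 14%. The SE is the log2 change divided by the square root of F. P-values are two-sided and adjusted over all genes by the Benjamini-Hochberg method, with a call below 0.05. They set a change against the spread between animals, as the fit of the 62 libraries estimates it. DESeq2 1.42.0 was an alternative. CPM use TMM-scaled library sizes.

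Pairs by day come from the labels and not from the counts. Deviations from the group means correlated at -0.03 to 0.14 within the 8 pairs. The text names 12 higher and 12 lower genes by smallest p at a mean of at least 1 CPM, predicted genes skipped, up to 5 per difference contrast, up to 4 members of a described list, and 28 further genes. Members and lists were chosen with earlier results of these data known. Without molecular identifiers a read is not an independent molecule. Intervals cover the spread between animals as the fit of the 62 libraries estimates it. No replicate libraries matched within sampling noise (lowest chi-square per gene 6.84). Promoters are RefSeq's, in GRCm38.p6.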

Additional observations from a re-analysis of the deposited data

Results flagged for a closer look

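Among 114 groups of 8 values examined, 15 had 1 value far from the other 7 by Dixon's ratio. Chance gives about 1 in 20 for normally distributed values, and some of these genes were chosen by their values. The 114 groups did not hold every named gene. Alb, far higher in library 6 with NR and PT than in the other 7, is not among the 15. In runners with NR and PT there were 5. Library 6 stood out for Apoh at 11.2 CPM and for the summed liver genes at 709 CPM. Library 5 stood out for ribosomal-RNA-like transcripts at 41.5 CPM, library 4 for a low Pex10 at 7.71 CPM and library 3 for Chrng at 0.895 CPM.

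In runners with PT alone there were 10. Library 5 stood out for Pdk4 at 1610 CPM, Myh7 at 3.48 CPM and the slow-fibre genes without Mb at 270 CPM. Library 2 stood out for Oas1a at 2.75 CPM, Bst2 at 14.2 CPM, Slc27a4 at 14.4 CPM and Fip1l1 at 27.7 CPM. Library 3 stood out for Mymk at 0.298 CPM and Slc2a4 at 516 CPM, and library 1 for Arf5 at 33 CPM. These libraries are in every result above unless stated, and the causes were not tested.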

How the results depend on the processing

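Under 38 alternatives, 24 of which leave out 1 library or 1 day, the count of called genes stayed at 0 except as follows. Without day and time in the model 1 gene was called, Alb (adjusted p = 0.00291), and without libraries 4 and 5 with NR and PT, an alternative chosen after seeing the data, 1 gene, Elovl3 (adjusted p = 0.0444). For the difference from the other 3 settings, 0 to 1 genes were called when 1 library or day was left out: B3galt6 was called without library 5 with NR and PT (adjusted p = 0.0364) and without day 5 (adjusted p = 0.0257). Nmrk2 kept its direction under all 38, from -1.25 to -0.61, and was called in none.

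Title numbers do not follow the day of termination: 1 of 8 numbers shared a day. Correlations were -0.12 to 0.17 by number and -0.03 to 0.14 by day, and do not tell these pairings apart. With the number as a replicate block, 0 genes were called (612 at an unadjusted p below 0.05, against 656 with no block). The mean difference in body weight change ran from -2.86 to -1.94 when 1 day was left out, with p from 0.0312 to 0.0781 (exact permutation test), and had p = 0.0499 without pairing. Of these 9 alternatives, 6 gave a p of 0.05 or above. The mean difference in ribosomal-RNA-like transcripts ran from 3.96 without day 5 to 8.93.

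Of 96 named genes, 73 kept their direction under each alternative that gave a value, 34 to 38 a gene, and 46 moved by over 1.5 times or changed sign with some library or day left out. Cdkn1a was at -0.083 in cohort 2 and -0.127 with body weight change in the model. The others changed sign, with their log2 change: in cohort 2 alone, Bst2 0.208, Echs1 -0.079, Fh1 -0.013, Hk2 -0.164, Irf7 0.189, Mb -0.239, Myh1 -0.386, Myh2 -0.81, Nmrk1 -0.009, Nnmt 0.405, Oas1a 0.241, Ppargc1a -0.141, Sirt3 -0.093, Suclg2 -0.023 and Uba2 0.014. In cohort 1 alone, Alb -0.272, Apoc1 -0.129, Nampt 0.008, Pdk4 0.57 and Vegfa 0.114. With body weight change in the model, Hk2 -0.082, Myh2 -0.015, Nnmt 0.25 and Ppargc1a -0.002. With RIN in the model, Bst2 0.012, Hk2 -0.023 and Nnmt 0.056. Without libraries 4 and 5 with NR and PT, Bst2 0.079, Hk2 -0.009, Myh2 -0.056, Nmrk1 -0.003 and Tnnc1 -0.235. Nnmt was at 0.006 with no block and with no day or time. Pdk4 was at 0.206 with pairs by day, 0.217 with the replicate block and 0.089 with the purification pool. Nampt was at 0.001 with GC content and length taken out. With 1 library or day left out, the ranges were -0.188 to 4.183 for Alb, -0.137 to 0.15 for Bst2, -0.247 to 0.82 for Chrng, -0.058 to 0.087 for Hk2, -0.09 to 0.152 for Ifit3, -0.035 to 0.757 for Myh2, -0.333 to 0.071 for Nnmt, -0.246 to 0.519 for Pdk4, -0.028 to 0.11 for Ppargc1a and -0.085 to 0.055 for Vegfa. The causes were not tested. Without a low-count filter, 1223 genes were at an unadjusted p below 0.05. Of the 36 list medians, 8 kept their sign under every alternative.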

Other observations

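Body weight change was added to the model as 1 of the alternatives, because it was the lower in runners with NR and PT. With it, the log2 change of Nmrk2 was -1.04 and that of Atcayos 0.18, and the median of adipocyte markers was 0.03, against -0.17 without it. Fibroblast markers had a median of 0.20 with it and 0.06 without it, and macrophage and neutrophil markers 0.18 and 0.04. B3galt6 was at 0.60 in both.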
